A study of Mus musculus with 13 samples.

Results

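The comparison described here set young Fbln7 knockout skin against young wild-type skin. It used the 3 libraries whose titles read KO and the 3 whose titles read WT at 2 months, 6 of the 13 libraries in the series, and the libraries were assigned to the groups by their titles. All 6 came from mice of the strain spelled C57BI/6 in the labels, aged 2 months, with the genotype Fbln7 KO or Fbln7 WT. The material was back skin epidermis, dissociated with trypsin and sorted by flow cytometry, and the labelled cell type was epidermal stem cells. RNA was made into libraries with a stranded low-input kit that captures total RNA, so unspliced and ribosomal RNA were sequenced beside mRNA. The deleted part of the gene, the allele, the tissues in which it is lost, the sex of the animals and the antibodies of the sort are not given in the sources used here. The labels do not state that each library came from a separate animal, and p-values then measure only the spread between these samples.

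Epidermal stem cells lie in the basal layer of the epidermis, where they attach to the basement membrane through integrins and hemidesmosomes. They express the paired keratins 5 and 14, divide, and give rise to suprabasal cells that stop dividing and make keratins 1 and 10. Fibulin-7, the product of Fbln7, belongs to the fibulin family of matrix glycoproteins, which bind other matrix molecules and cell surfaces. The question posed by the design was how the loss of this protein alters the transcriptome of these cells in young animals.

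Library tables carried 1 of 2 name tokens, whose meaning the labels do not explain and which are called run A and run B here. Run A held WT 1, WT 2, KO 1 and KO 2, and run B held WT 3 and KO 3. Depth lay between 6071671 and 11169320 total gene reads. The share of the ribosomal RNA row Rn18s-rs5 was 18.3 to 35.6% in run A and 4.75 to 4.85% in run B. Exon reads made up 25.5 to 41.9% of the total in run A and 57.0 to 57.3% in run B. The leading principal component held 46.9% of the variance and separated the runs, and run was therefore a term of the edgeR fits unless stated. The next component held 22.0% and placed WT 1 and KO 2 opposite KO 1 and WT 2, so it did not follow genotype. Xist, which is transcribed from the inactive X chromosome, had 4791 to 12695 reads in WT 3, KO 1 and KO 3 and at most 9 in the other libraries. The Y-linked gene Ddx3y had 113 to 185 reads in those other libraries, WT 1, WT 2 and KO 2. In run A the genotype groups therefore differed in these sex-linked transcripts, with KO 1 apart from the rest. Levels below are in CPM, reads of a gene scaled to a common library size after TMM normalization.

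Fbln7 itself was at the edge of detection in both genotypes. The gene (ENSMUSG00000027386.9) lies on the plus strand at chr2:128862981-128897034 in GRCm38. It had 0 reads in WT 1, 2 in WT 2 and 16 in WT 3, and 2, 1 and 1 reads in KO 1, KO 2 and KO 3. WT 3 was the only library with more than 2 reads. Of these reads, 12 in WT 3, 2 in WT 2 and 2 in KO 1 lay in exons, and KO 2 and KO 3 had no exon read. WT libraries averaged 0.444 ± 0.524 CPM and KO libraries 0.174 ± 0.0936 CPM (SD over 3), and the exact two-sided permutation test, which takes no account of run, gave p = 0.6, where 3 against 3 cannot go below 0.1. In exon reads the levels were 0.904 ± 0.940 CPM and 0.227 ± 0.394 CPM, with p = 0.4 in the same exact permutation test. The 0 in WT 1 allows up to 0.494 CPM before TMM scaling, by counting error alone. The difference of -0.270 CPM in total reads became 0.0188 CPM without WT 3 and 0.0700 CPM within run A, so its direction rested on that library. The transcript thus gave no check of the genotype labels at this depth, and it did not pass the filter on low counts. In sorted bulk cells, a lower level could come from fewer expressing cells or from less RNA per cell, and these cannot be told apart.

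No gene passed the threshold between KO and WT at 2 months. Of 12759 genes tested with the edgeR quasi-likelihood test, 0 (0%) had a Benjamini-Hochberg adjusted p under 0.05, and the smallest adjusted p was 0.99989. At an unadjusted p under 0.05 there were 259 genes (2.03%), of which 153 (1.2%) were higher and 106 (0.831%) lower in KO. DESeq2 called 0 genes with 144 at an unadjusted p under 0.05, and limma-voom called 0 with 351. The CPM values of the genotypes did not overlap in 605 genes (4.74%), 298 higher in KO (2.34%) and 307 lower (2.41%). The median log2 fold change over all genes was -0.0038, and 95% of the genes lay between -0.53 and 0.59.

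The intervals of the fold changes show what size of difference remains possible. Of all genes tested, 10057 (78.8%) had a 95% interval that lay wholly within a 2-fold difference in either direction. Among the 7324 genes with a mean of at least 10 CPM this share was 97.2%, and 85.9% lay within 1.5-fold. The median absolute log2 fold change of these 7324 genes was 0.079 and its 95th percentile 0.29. Among the 5435 genes under 10 CPM, the share of intervals within 2-fold was 54.1%. Fold changes of at least 2 were found in 111 genes, of which 102 had a mean under 10 CPM.

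**Figure D1:**
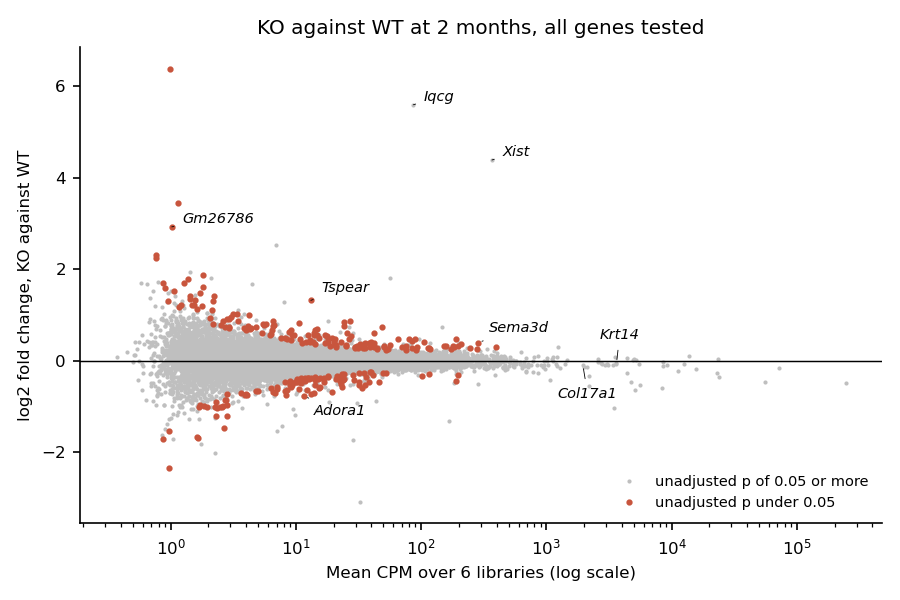
Mean CPM over the 6 libraries (x axis, log scale) against the log2 fold change of KO against WT (y axis) for the 12759 genes tested; red points are the 259 genes with an unadjusted p under 0.05. The cloud narrows around 0 as the level rises, and 102 of the 111 genes past a 2-fold change lie under 10 CPM; no gene had an adjusted p under 0.05.

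A difference of 2-fold or more at 10 CPM or above was found in 9 genes, several of which had a few libraries apart. Iqcg had the largest of these differences, with 0, 0 and 2.81 CPM in the WT libraries and 353, 153 and 11.04 CPM in the KO libraries. Its TPM, computed by the authors from exons, was at most 0.232 in any library, so nearly all of its reads lay outside exons. Gm17106, a processed transcript that spans Iqcg on the same strand of chromosome 16, had 423, 353 and 13.8 CPM in WT and 38.2, 159 and 16.4 CPM in KO. It was low in both run B libraries, and reads of this overlapping pair could be assigned to either gene, so both levels are uncertain. BC107364 reached 173 CPM in WT 3 and at most 10.1 CPM elsewhere. The small nuclear RNA Gm24830 had 174 CPM in KO 3 and 0 in WT 3. Xist and Ddx3y followed the sex-linked pattern given above. Cmss1 had 7393, 5419 and 1575 CPM in WT and 996, 4419 and 1011 CPM in KO, and Gm10073 had 29.8, 14.7 and 89.7 CPM in WT and 3.96, 27.1 and 7.10 CPM in KO, and both overlapped. Tspear, the last of the 9, was higher in KO by a like amount in each run and is described among the leading genes.

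The genotype differences of the 4 libraries of run A and the 2 of run B were nearly uncorrelated. Over the 7324 genes of at least 10 CPM, the difference between KO and WT in mean log2 CPM was taken in each run, from libraries that the other run does not share. The Pearson correlation of these differences across genes was -0.0041 and the Spearman correlation -0.050. The sign was the same in both runs for 3557 genes (48.6%). The differences had an SD of 0.242 in run A and 0.266 in run B, so they were of like size in each run. Genes are not independent replicates, and these values describe the libraries.

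**Figure D2:**
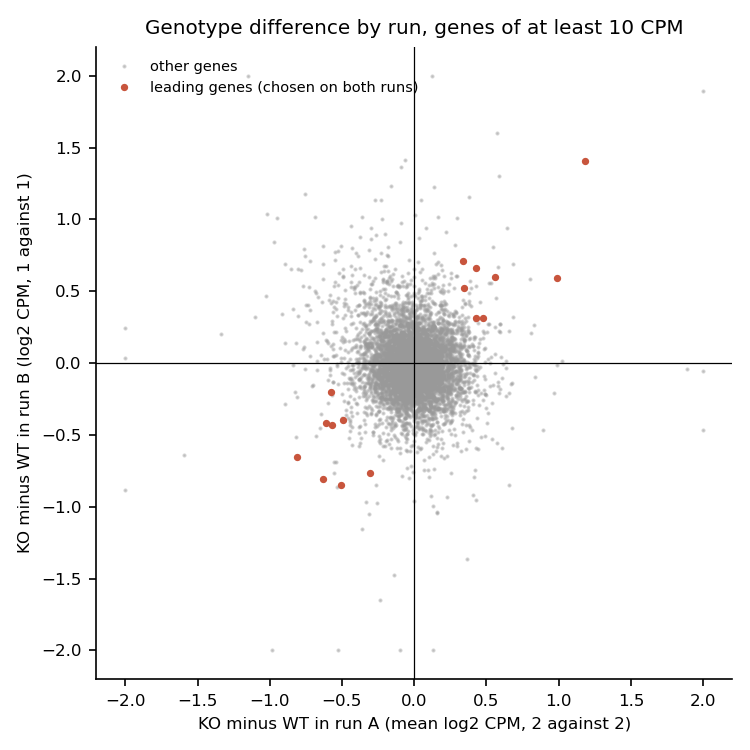
Difference between KO and WT in log2 CPM within run A (x axis, 2 libraries of each genotype) and within run B (y axis, 1 of each) for genes of at least 10 CPM; values past 2 on either axis (12 genes) are drawn at the edge. The cloud is round, with a correlation of -0.0041 across genes, and the red points are the leading genes, which were chosen on the data of both runs and lie where the signs match.

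The genes of smallest unadjusted p are given as leading genes, 10 in each direction with a mean of at least 1 CPM, and none of them passed the adjusted threshold (adjusted p 0.99989 for each, edgeR quasi-likelihood test). Among the 10 leading genes that were lower in KO, 8 had groups that did not overlap. Adora1, the adenosine A1 receptor, had 14.6, 16.6 and 12.5 CPM in WT 1 to WT 3 and 8.04, 9.56 and 7.89 CPM in KO 1 to KO 3. Every KO library lay below every WT library, and the log2 fold change was -0.78 (95% interval -1.15 to -0.40). The gene lies on the minus strand at chr1:134199223-134235431.

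Spink5 encodes LEKTI, an inhibitor of the serine proteases that shed the cornified layer. It had 41.2, 38.8 and 55.2 CPM in WT and 32.7, 32.0 and 32.3 CPM in KO. The KO libraries were nearly equal and all below WT, with a log2 fold change of -0.48 (-0.76 to -0.20). Ovol1 encodes a zinc finger repressor that acts as basal keratinocytes stop dividing. It had 8.77, 8.22 and 8.56 CPM in WT and 4.85, 4.29 and 6.09 CPM in KO. The groups did not overlap, and its log2 fold change was -0.72 (-1.19 to -0.24). In exon reads alone the values for these genes were close, at -0.45 for Spink5 and -0.74 for Ovol1.

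Hpgd encodes the enzyme that inactivates prostaglandins. It had 15.1, 22.0 and 35.1 CPM in WT and 11.9, 13.9 and 19.4 CPM in KO. KO 3 lay above WT 1, while KO was below WT within each run, and the log2 fold change was -0.68 (-1.06 to -0.31). Hspa1a, which encodes an inducible heat shock protein of the HSP70 family, had 55.0, 52.5 and 52.6 CPM in WT and 34.6, 42.1 and 39.9 CPM in KO. Its groups did not overlap, with a log2 fold change of -0.46 (-0.71 to -0.21). It has a near-identical neighbour, Hspa1b, between which reads can be split, so its own level is uncertain. B4galnt1, a glycosyltransferase of ganglioside synthesis, had a log2 fold change of -0.52 with 25.1 to 29.2 CPM in WT and 16.0 to 21.7 CPM in KO. Phyhip (-0.54), Plekhh1 (-0.74) and AA986860 (-0.70) were likewise below the WT range in all 3 KO libraries. The last of the 10, Spata5, was -0.46 in total reads but -0.15 in exon reads, and 6.70% of its reads lay in exons.

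Among the 10 leading genes that were higher in KO, 6 had groups that did not overlap. Sema3d, a secreted semaphorin, had 257, 263 and 217 CPM in WT and 375, 326 and 269 CPM in KO. All KO libraries lay above all WT libraries, and the log2 fold change was 0.39 (0.15 to 0.63). Cdh4, which encodes R-cadherin, had 95.9, 104 and 72.7 CPM in WT and 124, 130 and 105 CPM in KO. KO 3 was barely above WT 2, and within run B the KO library stood clear of WT. Its log2 fold change was 0.40 (0.18 to 0.63).

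Adk encodes adenosine kinase, which clears adenosine by phosphorylating it. It had 73.6, 76.5 and 65.6 CPM in WT and 98.9, 111 and 81.6 CPM in KO. Its groups did not overlap in total reads, with a log2 fold change of 0.42 (0.20 to 0.65), but in exon reads the value was 0.15, and 19.3% of its reads lay in exons. Serpinb2 encodes plasminogen activator inhibitor 2, a protease inhibitor of keratinocytes. It had 155, 133 and 185 CPM in WT and 169, 194 and 303 CPM in KO. KO 3 was far above the others, KO 1 lay below WT 3, and the log2 fold change was 0.47 (0.19 to 0.74). In exon reads it was 0.48.

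Sorcs2, a receptor of the sortilin family, had 23.9, 16.6 and 15.8 CPM in WT and 31.1, 50.5 and 23.9 CPM in KO. KO 2 was the highest, and KO 3 was just above WT 1. The log2 fold change was 0.87 (0.37 to 1.37). Mid1, an X-linked ubiquitin ligase of microtubules, had 19.0 to 25.2 CPM in WT and 28.3 to 37.9 CPM in KO, with a log2 fold change of 0.54. Trabd2b, a metalloprotease that inactivates Wnt proteins, was low at 3.45 to 6.38 CPM in WT and 6.597 to 10.6 CPM in KO, with a log2 fold change of 0.88. Dab1, an adaptor of reelin signalling, had 25.4 to 39.9 CPM in WT and 38.7 to 67.5 CPM in KO, and its groups overlapped. Tspear had 13.8, 7.45 and 2.24 CPM in WT and 17.0, 32.2 and 6.31 CPM in KO. It was lowest in run B for both genotypes, 4.03% of its reads lay in exons, and its log2 fold change was 1.32 (0.58 to 2.05). The long noncoding RNA Gm26786 had 0, 4 and 0 reads in WT and 21, 13 and 4 reads in KO.

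**Figure D3:**
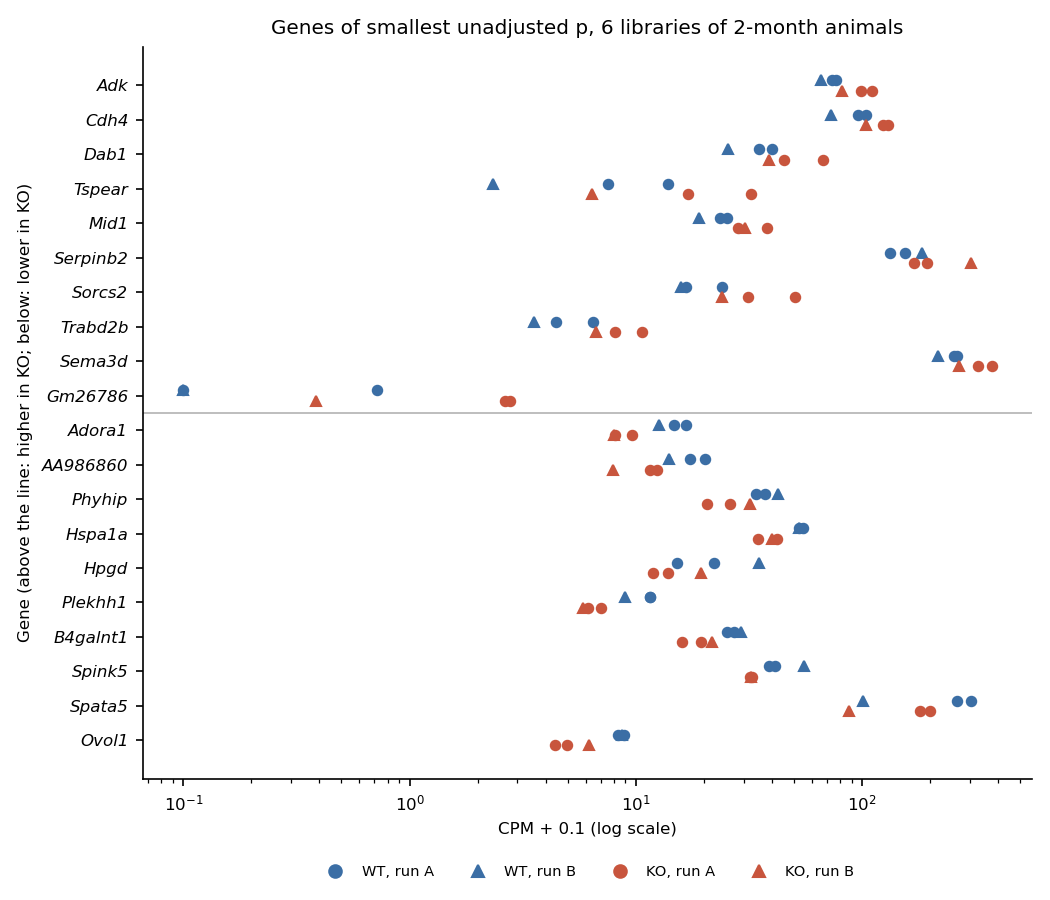
CPM with 0.1 added (x axis, log scale) of the 20 leading genes in the 6 libraries, WT in blue and KO in red, circles for run A and triangles for run B. The genotypes did not overlap in 14 of the 20 genes, 6 higher and 8 lower in KO; the genes were chosen by their p, so this separation is a description.

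The edgeR quasi-likelihood test run with no filter on low counts called 12 of 25475 genes (0.0471%). Tspear (adjusted p = 2.19e-06), Sorcs2 (6.65e-05) and Dab1 (0.0118) of the leading genes were among them, with fold changes close to those above. Thbs1, which encodes the matrix protein thrombospondin 1, was also called (adjusted p = 1.49e-04) with a log2 fold change of 0.73. Gem, a small GTPase, had 26.8, 15.1 and 12.3 CPM in WT and 28.8, 31.8 and 30.8 CPM in KO, and Sema3e, a further semaphorin, had 15.8 to 21.8 CPM in WT and 21.5 to 41.9 CPM in KO. Emb was the called gene of more than 10 CPM that was lower, with 31.9 to 56.3 CPM in WT and 22.5 to 30.8 CPM in KO. Gm42715 overlapped, with 1.41 to 24.7 CPM in WT and 4.73 to 39.9 CPM in KO. The other 4 had means of 0.801 to 1.21 CPM, such as Chga with 7.17 CPM in WT 1 and RP24-302M13.5 with 4.804 CPM in KO 3. Chga and RP24-302M13.5 did not enter the filtered tests, and none of the other 10 passed there with edgeR, DESeq2 or limma-voom. The cause was not tested.

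Genes that define the basal layer had close levels in both genotypes. Of 18 basal identity genes tested, 9 were higher and 9 lower, the median log2 fold change was 0.02, and 17 had an interval within 2-fold. Krt5 had 5652, 4985 and 4192 CPM in WT and 4902, 5122 and 5106 CPM in KO, with a log2 fold change of 0.04 (-0.34 to 0.41). Krt14, its partner, had -0.07 (-0.45 to 0.31), and Krt15, a further keratin of the basal layer, had -0.04 (-0.45 to 0.36). Trp63, the transcription factor that sets up stratified epithelium, had 779, 858 and 823 CPM in WT and 799, 944 and 899 CPM in KO. Its groups overlapped, at 0.10 (-0.18 to 0.39). An unadjusted p under 0.05 was found for 2 members (11.1%, beside 2.03% of all genes), Ovol1, given above, and Sox6. Sox6 had 339, 401 and 314 CPM in WT and 462, 484 and 358 CPM in KO. KO was above WT in each run, at 0.30 (0.04 to 0.56), and 14.0% of its reads lay in exons.

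Genes of the attachment to the matrix also had close levels. All 20 hemidesmosome and integrin genes tested had an interval within 2-fold, 10 were higher and 10 lower, and the median was 0.0039. Col17a1, the collagen of hemidesmosomes, had a log2 fold change of -0.09 (-0.41 to 0.23). The integrin genes Itga6 (0.02, -0.24 to 0.29) and Itgb4 (-0.02, -0.25 to 0.22), whose products form the hemidesmosome receptor, and Itgb1 (-0.03, -0.27 to 0.22) were nearer still. Parva, which links integrins to actin, had the lowest value of the list, -0.38 (-0.78 to 0.02), with 21.7 to 28.4 CPM in WT and 14.2 to 20.9 CPM in KO. In exon reads it was -0.13.

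Basement membrane genes lay slightly above 0. Of 18 tested, 15 were higher and 3 lower, with a median of 0.08 beside -0.0038 over all genes, and 1 (5.56%, beside 2.03% of all genes) had an unadjusted p under 0.05. Lama3 and Lamb3 encode laminin chains of the epidermal basement membrane, and they had log2 fold changes of 0.07 and 0.06. Col7a1, the collagen of anchoring fibrils, had 124, 149 and 117 CPM in WT and 136, 164 and 143 CPM in KO, at 0.19 (-0.08 to 0.45). Its groups overlapped. Frem2, a protein of the epithelial basement membrane, had 60.3, 55.1 and 47.2 CPM in WT and 61.5, 102 and 63.5 CPM in KO. KO 2 stood apart and KO 1 barely cleared WT 1, at 0.47 (0.08 to 0.87). The mean log2 CPM of the list was 5.48, 5.56 and 5.55 in WT and 5.64, 5.65 and 5.55 in KO, and KO 3 lay within the WT range. The summed level of its 21 genes was 1358 to 1402 CPM in WT and 1420 to 1575 CPM in KO, without overlap.

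**Figure D4:**
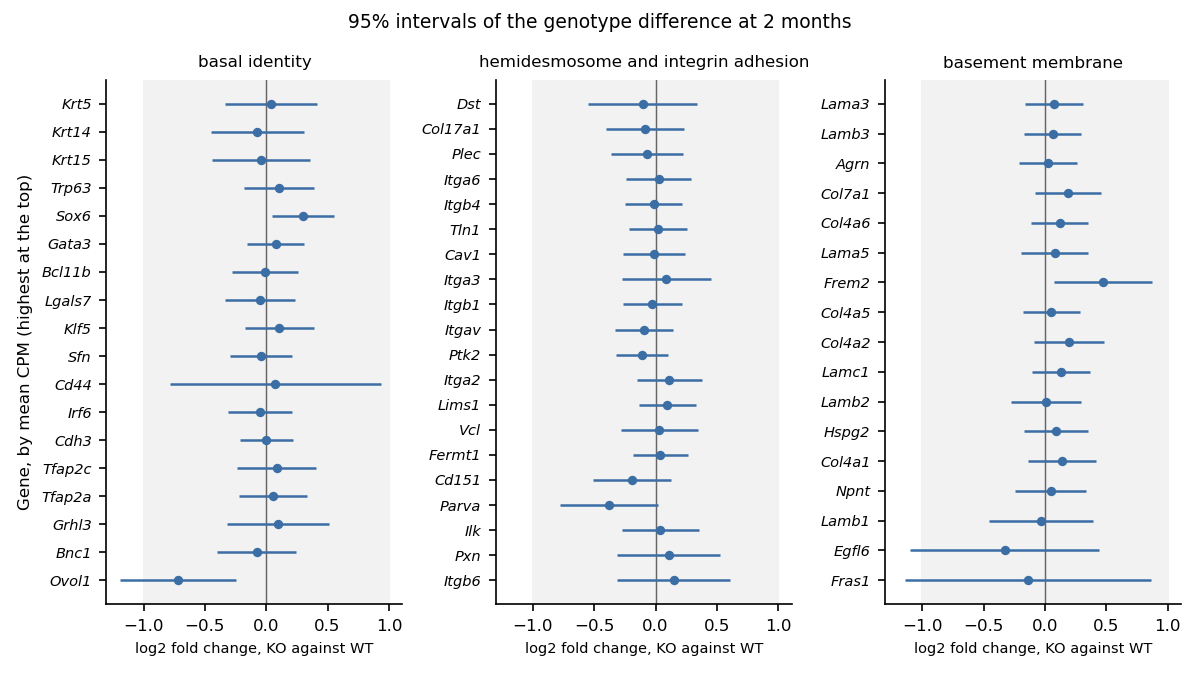
Log2 fold change of KO against WT (x axis, points) with its 95% interval (lines) for tested genes of 3 lists, ordered by mean CPM; the grey band is a 2-fold difference either way. Of the intervals drawn, those of Ovol1, Egfl6 and Fras1 reach outside the band, and those of Ovol1, Sox6 and Frem2 do not include 0.

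Among fibulins and matricellular genes, 4 of 15 tested had an unadjusted p under 0.05 (26.7%, beside 2.03% over all genes), in different directions. The list had 4 members higher and 11 lower, with a median of -0.15. The members named here beyond Efemp1 and Thbs2 were chosen after their values were seen. Thbs1 had 54.2, 28.4 and 28.7 CPM in WT and 54.2, 69.3 and 55.1 CPM in KO. WT 1 and KO 1 were equal to 3 digits, and the log2 fold change was 0.73 (0.13 to 1.33). Thbs2, its relative, had 142, 119 and 166 CPM in WT and 151, 191 and 186 CPM in KO, at 0.31 (0.03 to 0.60), and its groups overlapped. Efemp1, which encodes fibulin-3, had 90.1, 106 and 145 CPM in WT and 90.1, 76.7 and 100 CPM in KO. It was lower in KO within run B and overlapped in run A, at -0.34 (-0.61 to -0.07), and at -0.63 in exon reads, which were 32.2% of its reads. Timp3, an inhibitor of metalloproteases that is held in the matrix, had 16.2 to 24.5 CPM in WT and 13.3 to 15.1 CPM in KO, without overlap, at -0.48 (-0.88 to -0.07). Of the other fibulins, Fbln1 had a log2 fold change of -0.13 with a wide interval (-1.23 to 0.97), and Fbln2, Fbln5 and Efemp2 were too low to be tested. Fibronectin (Fn1) had -0.21 (-0.66 to 0.23) and periostin (Postn) 0.20 (-0.51 to 0.92).

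Markers of epidermal stem cell subpopulations were present in both genotypes. Slc1a3, known from fast-cycling basal cells, had 14.6, 11.5 and 8.31 CPM in WT and 11.995, 10.3 and 9.25 CPM in KO, at -0.07 (-0.47 to 0.34). Dlx1, known from slow-cycling cells, had 0 reads in all 6 libraries. Lrig1 (0.01, -0.25 to 0.27), Lgr6 (0.06, -0.20 to 0.33) and Axin2 (-0.08, -0.33 to 0.17), which mark further stem cell pools, had intervals within 1.5-fold. The widest of the list was Plet1, with 12.2, 5.59 and 11.9 CPM in WT and 0.638, 9.95 and 1.72 CPM in KO. KO 2 was within the WT range and the other KO libraries below it, at -1.54 (-4.76 to 1.68).

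Differentiation genes gave 5 higher and 12 lower of 17 tested, with a median of -0.12, and none had an unadjusted p under 0.05. Members ran from Aloxe3 at -0.52 to Calml3 at 0.48. Flg was at -0.46, and at -0.73 in exon reads. Groups did not overlap in 1 of the 17, Tgm3 (-0.42), which was lower in KO, beside 4.74% of all genes. The suprabasal keratins were Krt1 at -0.14 (-0.44 to 0.15) and Krt10 at -0.12 (-0.41 to 0.17), and both were lower in run B for either genotype. Krt10, for example, had 1471, 1514 and 815 CPM in WT and 1466, 1263 and 765 CPM in KO. Desmosome and adherens junction genes had 4 higher and 11 lower of 15, a median of -0.04 and all 15 intervals within 2-fold. Desmoplakin (Dsp) was at -0.08 (-0.42 to 0.26).

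Of the inflammatory and stress genes, 11 of 18 tested were higher and 7 lower, with a median of 0.07. Il33, an alarmin of the interleukin-1 family that keratinocytes hold in their nuclei, was the only member with an unadjusted p under 0.05 (5.56% of the list, beside 2.03% of all genes). It had 16.7, 13.04 and 13.4 CPM in WT and 19.5, 23.2 and 19.7 CPM in KO, without overlap. Its log2 fold change was 0.54 (0.20 to 0.89), and 0.62 in exon reads. Il18, of the same family, had the lowest value of the list, -1.50 (-3.16 to 0.16), at 0.531, 1.71 and 1.53 CPM in WT and 0.128, 1.17 and 0.359 CPM in KO. Its groups overlapped. The inflammatory genes S100a8, S100a9 and Defb14 had 0 reads in all 6 libraries. Interferon response genes had a median of 0.04 with 10 of 15 higher. Tap1, a peptide transporter of antigen presentation, was at 0.04 (-0.24 to 0.31).

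Signalling pathways of the basal layer had medians near 0. The median was -0.08 for 15 Notch genes, -0.02 for 30 Wnt genes, 0.01 for 25 BMP and TGF-beta genes and -0.0030 for 16 EGF receptor genes, with no member at an unadjusted p under 0.05. Notch1 was at -0.04 (-0.33 to 0.25), the Wnt secretion factor Wls at 0.03 (-0.21 to 0.26) and Egfr at -0.03 (-0.26 to 0.21). Tgfb2, a TGF-beta ligand, had 15.4, 24.8 and 17.1 CPM in WT and 15.8, 17.2 and 11.7 CPM in KO, at -0.40. For Hippo and YAP targets the median was -0.02 over 16 genes, and 1 (6.25%, beside 2.03% of all genes) had an unadjusted p under 0.05. Yap1 was at 0.05 (-0.22 to 0.31), and Amotl2, the member past that threshold, which holds YAP in the cytoplasm, at -0.46 (-0.86 to -0.06). Amotl2 had 27.6, 40.8 and 42.9 CPM in WT and 30.0, 20.3 and 30.8 CPM in KO, with WT 1 inside the KO range.

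The cell cycle list had 11 higher and 25 lower of 36, with a median of -0.05 and no member at an unadjusted p under 0.05. Mki67, a marker of dividing cells, had 188, 187 and 76.2 CPM in WT and 153, 108 and 125 CPM in KO. KO was below WT in run A and above it in run B, at -0.11 (-0.88 to 0.67). The mean log2 CPM of the list was lowest in KO 2, at 3.07, and highest in KO 3, at 3.94, with the WT libraries between them. The p53 and senescence list had 4 higher and 14 lower of 18, with a median of -0.09. Its member of smallest p, Igfbp3, was at 0.37 (0.07 to 0.67), against the direction of most of the list. It binds insulin-like growth factors and had 211, 176 and 159 CPM in WT and 204, 258 and 239 CPM in KO. The circadian list had 9 higher and 9 lower of 18, with a median of -0.0031.

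Several metabolic lists were higher in run B in both genotypes. The mean log2 CPM of nuclear oxidative phosphorylation genes was 4.81 to 5.02 in run A and 5.20 and 5.26 in run B. Medians were 0.0030 for cholesterol and lipid synthesis, -0.04 for nuclear genes of oxidative phosphorylation, -0.04 for glycolysis and hypoxia, and -0.07 for the unfolded protein response. No member of these 4 lists had an unadjusted p under 0.05. All 13 mitochondrial genome transcripts were higher, with a median of 0.11. Their mean log2 CPM was 7.70, 7.44 and 7.98 in WT and 7.50, 7.63 and 8.35 in KO, so both run B libraries were the highest and KO 3 alone lay above the WT range. Immediate early genes, which respond within minutes to stimulation or to cell handling, had 19 higher and 4 lower of 23 and a median of 0.19. An unadjusted p under 0.05 was found for 2 of them (8.70%, beside 2.03% of all genes), Hspa1a, which was lower, and Fosl2, which was higher. Groups did not overlap in 3 of the 23, Hspa1a, Ier5 and Klf2, all lower in KO. Over all genes tested, 4.74% did not overlap in either direction, and 2.41% were lower without overlap. The mean log2 CPM of the list was 5.04, 4.61 and 4.48 in WT and 4.35, 5.66 and 4.49 in KO. KO 2 was the highest and KO 1 the lowest. Fos had 476 CPM in KO 2 and 82.8 to 233 CPM in the other libraries, with a log2 fold change of 0.39 (-1.28 to 2.06). Among the 17 genes that were higher in KO and either leading or at an unadjusted p under 0.05 in a list, KO 2 was the highest library for 12. As these genes were chosen as higher in KO, a KO library was likely to be the highest. No share over all genes is given beside this count. Leaving out the highest library of such genes tends to lower their values by construction, and 11 of the 12 were smaller without KO 2. The values without KO 2 are therefore a description only. Without KO 2 the log2 fold change was 0.25 for Frem2, 0.19 for Thbs2 and 0.14 for Fosl2, an immediate early gene. It was 0.43 for Dab1, 0.63 for Sorcs2, 0.66 for Thbs1 and 1.02 for Tspear. For Adk it was 0.36, for Sox6 0.27, for Il33 0.48 and for Igfbp3 0.30. Cdh4 had 0.405 without KO 2 and 0.404 with it. All 12 stayed above 0. The part of the immediate early genes of KO 2 in these values was not tested.

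**Figure D5:**
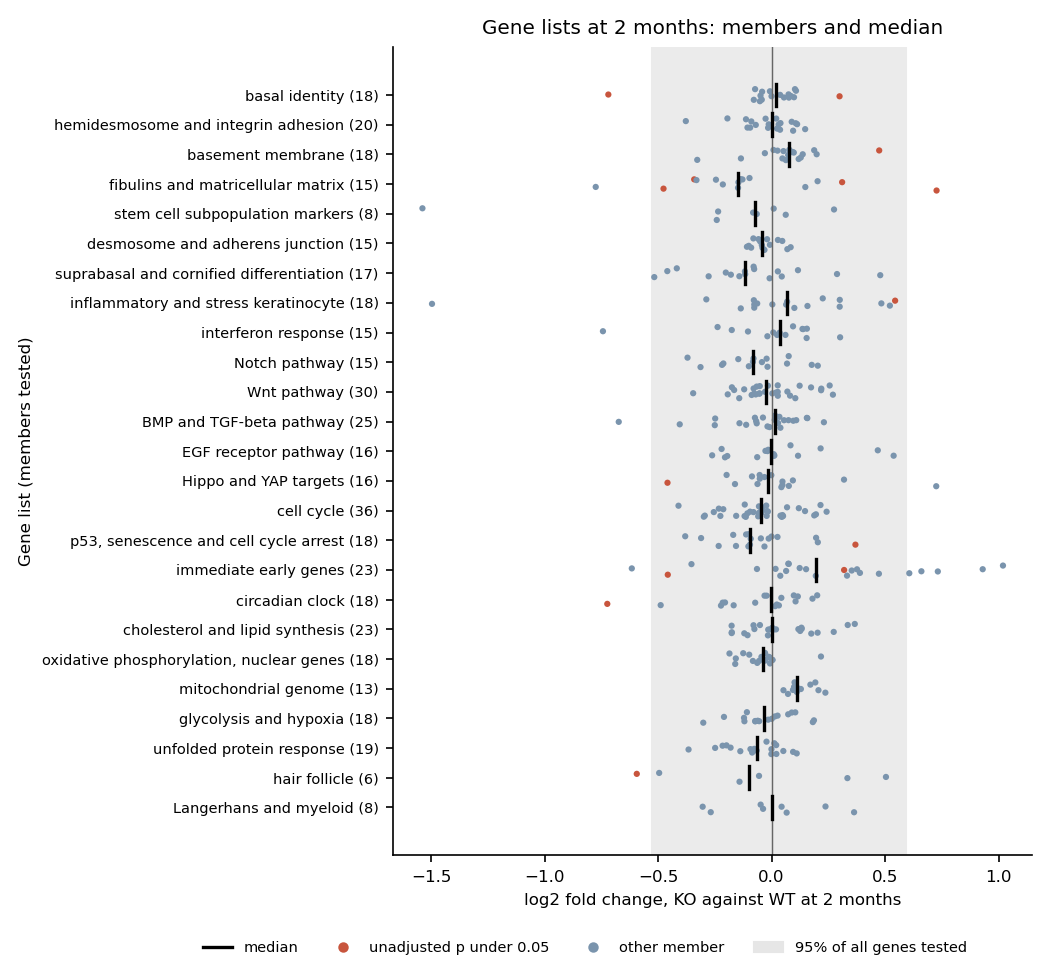
Log2 fold change of KO against WT (x axis) for the tested members of 25 gene lists with at least 6 members tested (rows, members tested in brackets; the sex-linked list, median -0.44, is not drawn), with the median as a black bar; red points have an unadjusted p under 0.05 and the grey band holds 95% of all genes tested. The medians drawn lie between -0.15 and 0.19, the highest being that of the immediate early genes.

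Over all 33 lists, 464 distinct genes were tested, 0 passed the adjusted threshold, and 14 (3.02%) had an unadjusted p under 0.05 beside 2.03% of all genes. The basal keratins and p63 given above were present in every library, all of them labelled as epidermal stem cells. Genes of suprabasal and cornified differentiation were present too. The 30 of that list summed to 3185 to 4515 CPM in WT and 2983 to 4538 CPM in KO. Markers of other cell types were low in both genotypes. The summed level was 54.6 to 86.4 CPM in WT and 57.6 to 81.2 CPM in KO for 15 Langerhans and myeloid genes. It was 4.35 to 14.0 CPM and 7.74 to 15.4 CPM for 16 T cell genes, with Nkg7, Gzmb and Xcl1 at 0. For 15 fibroblast genes it was 10.9 to 18.6 CPM and 11.7 to 15.3 CPM, with Lum at 0. For 10 melanocyte genes it was 35.6 to 53.7 CPM and 36.8 to 48.8 CPM, nearly all of it from Mitf, with Slc45a2 at 0. The ranges overlapped between the genotypes in each of these. For 10 sebaceous gland genes the sum was 2.95 to 5.58 CPM in WT and 5.36 to 8.59 CPM in KO. Both of those tested were higher, Mgst1 at 0.04 (-1.21 to 1.29) and Far2, a lipid enzyme of the gland, at 1.01 (-0.12 to 2.14). Far2 had 1.59, 0.466 and 2.05 CPM in WT and 2.30, 3.90 and 2.44 CPM in KO, without overlap. The part of such cells in the results was not tested. The 5 erythroid genes summed to 1.28 to 1.59 CPM in WT and 0.585 to 3.06 CPM in KO. Endothelial, muscle, adipose and nerve genes summed to 4.47 to 70.7 CPM in WT and 7.17 to 36.7 CPM in KO, most of it from Pecam1, of whose reads 0.676% lay in exons. Merkel cell genes reached 9.83 CPM in WT 1, mainly through Chga, and were at most 1.08 CPM in KO. Hair follicle genes summed to 51.9 to 95.9 CPM in WT and 63.8 to 82.3 CPM in KO, with Krt72, Krt73 and Krt34 at 0. Within that list Sox9, a regulator of follicle stem cells, was at -0.59 (-1.18 to -0.01), with 10.4, 7.14 and 5.43 CPM in WT and 4.34, 7.02 and 3.73 CPM in KO.

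Genes near Fbln7 were looked at after the values were seen. Of 70 genes tested within 3 Mb on either side, the median log2 fold change was -0.02, and Blvra alone had an unadjusted p under 0.05 (1.43%, beside 2.03% of all genes). Groups did not overlap in 5 of the 70 (7.14%, beside 4.74% of all genes), with Blvra higher and Tmem127 (-0.19), Zfp661 (-0.48), Tgm3 (-0.42) and Mavs (-0.31) lower in KO. Blvra, which encodes biliverdin reductase A and lies at chr2:127070665-127097084, had 5.85, 5.90 and 7.09 CPM in WT and 7.66, 10.1 and 9.18 CPM in KO. Its groups did not overlap, at 0.50 (0.03 to 0.96). The direct neighbours Tmem87b and Zc3h8 were at -0.12 (-0.44 to 0.20) and -0.54 (-1.22 to 0.14), and both overlapped.

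Whether the genotype difference at 2 months was another than at 1 year was tested as an interaction over all 13 libraries. In the edgeR quasi-likelihood test, 0 of 15453 genes (0%) had an adjusted p under 0.05, with 626 (4.05%) at an unadjusted p under 0.05. The smallest adjusted p was 0.977.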

How the data were processed

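The members and gene lists were chosen with earlier results of these data known. RNA of sorted back skin epidermal cells was sequenced in 6 libraries, 3 per genotype. Per the file headers, the authors deposited 1 table per library with a column of total gene reads (whole, unnormalized counts) beside the TPM and RPKM values they computed. The build was mm10, per the submitters' processing notes. The aligner, the counting program and whether counting used strand are not given in the sources used here, so reads of a gene and its antisense partner cannot be told apart. TPM and RPKM leave out reads outside exons. Exon reads were recovered from the deposited RPKM, and for 100.0% of 26129 genes they came out whole within 0.01 reads. Gene positions are those of GENCODE M21 (GRCm38), matched by symbol for 47096 of 49585 listed genes.

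Counts were tested in R 4.3.3 with the edgeR 4.0.16 quasi-likelihood F test (TMM, robust dispersion, filterByExpr with a minimum count of 10), with terms for run and genotype. A gene was called at a Benjamini-Hochberg adjusted p under 0.05. An interval of 95% is the fold change ± the t quantile times its standard error. The genes to be named were Fbln7 and the 10 of smallest p in each direction with a mean of at least 1 CPM. In each list they were the 3 of highest mean CPM and the one of smallest p. Not all of these list members are reported by name here. Others, such as Itga6, Itgb4 and Itgb1, were added for their role or after their values were seen. List scores are the mean log2 CPM with a prior count of 2. Fbln7 was also compared with an exact permutation test in scipy 1.17.1. Alternatives were DESeq2 1.42.0, limma-voom 3.58.1, RLE scaling, no filter, no run term, run A alone, exon reads, all 13 libraries, the Xist share as a term, no ribosomal RNA rows, the replicate block and leaving out each library. The fit was tested on simulated data. No 2 libraries of a group held near-identical counts, the only thing checked by their chi-square over its degrees of freedom (37.4 and 58.1 for the pairs within run A). Depth was 6071671 to 11169320 reads per library, and intervals were wider for genes under 10 CPM. Limits for a count of 0 rest on 3 reads and cover counting error only. Sequences are not printed. Some members of the lists are counted but not reported by name here.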

Additional observations from a re-analysis of the deposited data

How the results depend on the processing

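Across 17 alternatives, the count of genes with an adjusted p under 0.05 was 0 in all but 2. It was 12 with no filter on low counts, and leaving out each library in turn gave 0 to 4. The 4 genes, Kdm5d, Eif2s3y, Uty and Ddx3y, are Y-linked and were called without KO 2, which leaves KO 1 and KO 3, the KO libraries with high Xist. The count at an unadjusted p under 0.05, 259 in the reported test, was 144 with DESeq2, 395 with the Xist share as a term, 170 with all 13 libraries, 558 with no filter and 98 with no run term. Leaving out each library gave 178 to 396. The cause was not tested. For Fbln7 the difference of -0.270 CPM was -0.677 CPM in exon reads and 0.0700 CPM in run A alone, and leaving out each library gave -0.493 to 0.0188 CPM. With no filter its log2 fold change was -1.55 (adjusted p = 0.9999, edgeR quasi-likelihood test). Without WT 3 or KO 3 the test rests on run A, since the other library of run B has no partner.

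All 20 leading genes kept their sign in each alternative in which they could be fitted. They were chosen by their p in the same libraries that the alternatives use, so this is a description only. Dab1, Tspear and Sorcs2 passed the threshold with no filter. List medians stayed within 1 SD of the list's scores in 507 of their alternative values and moved further in 19. The replicate numbers did not pair the samples: the deviations of same-numbered libraries correlated at 0.0045, 0.13 and 0.68, the last being the 2 libraries of run B, while WT 1 with KO 2 gave 0.35 and WT 2 with KO 1 gave 0.47. With a replicate block, 0 genes were called and 215 had an unadjusted p under 0.05. DESeq2, limma-voom, the block, the Xist term and the fit with no run term gave no Fbln7 value, because it did not pass their filter. Depth limits the genes under 10 CPM, of which 54.1% had an interval within 2-fold.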
